A study of Mus musculus with 4 samples.

Results

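The SLC25 family comprises the carrier proteins that move metabolites, nucleotides, cofactors and metals across the inner mitochondrial membrane. Its members were taken as every protein-coding gene of the deposited count table whose symbol is Slc25a followed by a number, which gave 47 of the 29300 genes in the table. The table's own annotation fits the family name, since 46 of the 47 carry the Pfam mitochondrial carrier domain, Slc25a35 being the exception. A Gene Ontology term for the mitochondrial inner membrane is attached to 45, and Slc25a17, a peroxisomal carrier, and Slc25a46, a protein of the outer membrane, lack it. Hippocampal RNA came from wild-type C57BL/6 male mice aged 7 to 8 months, with 2 mice per group. Control mice had isoflurane anesthesia without a fracture. Surgery mice, the model of perioperative neurocognitive disorder (PND), had the same anesthesia followed by a tibial fracture, and both groups were sampled on day 1. The comparison asks which hippocampal transcripts differ after surgery, and neither group was left without anesthesia.

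Most SLC25 carriers are built from repeats of a pair of membrane-spanning helices, and each repeat carries a short signature that begins with a proline. A carrier binds a substrate on one side of the membrane, changes conformation and releases it on the other, often in exchange for a second substrate. In the brain, the ADP/ATP carriers deliver ATP to the cytosol, the phosphate carrier supplies ATP synthase, and the aspartate/glutamate and oxoglutarate carriers form the malate-aspartate shuttle that brings reducing equivalents from glycolysis into mitochondria.

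The coding part of the signature, Pro-x-Asp/Glu-x-x-Lys/Arg, was searched in the longest complete coding sequence of each member in GENCODE. It occurred 3 times in 27 members, 2 times in 12 and once in 5, and not at all in the remaining 3 (Slc25a46, Slc25a51 and Slc25a53). The first signature of 4 pairs of related carriers is shown because the levels within these pairs were compared in each mouse. Capitals mark the 6 codons of the signature, and lower case marks 6 nt on each side.
Slc25a4: gtcgccCCGATCGAGAGGGTCAAActgctg
Slc25a5: gtagcaCCCATCGAGAGGGTCAAGctgctg
Slc25a28: atgtacCCGATCGACTGCGTCAAGacccgg
Slc25a37: atgtacCCGGTGGACTCCGTGAAGacacgg
Slc25a39: atgacaCCCCTGGATGTGGTGAAGgtccgc
Slc25a40: gtgactCCCCTGGATGTTGTTAAAattcga
Slc25a33: acatgtCCACTAGAAGTCATTAAGacgcga
Slc25a36: acatgtCCACTGGAAGTTGTCAAAacacgg

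In the mm10 assembly these stretches lie in coding exons at chr8:46210818-46210847 on the minus strand (Slc25a4), chrX:36795806-36795835 on the plus strand (Slc25a5), chr4:149762489-149762518 on the minus strand (Slc25a33) and chr9:97100182-97100211 on the minus strand (Slc25a36). The other 4 cross an exon junction, so their spans include an intron. They are chr19:43667138-43674499 on the minus strand (Slc25a28), chr14:69249617-69284755 on the minus strand (Slc25a37), chr11:102406393-102406555 on the minus strand (Slc25a39) and chr5:8427516-8428657 on the plus strand (Slc25a40). The related pairs were not alike in base composition. The coding sequence of Slc25a39 has a GC content of 59.1%, against 40.9% in Slc25a40, and at the third codon position the contents are 69.1% and 36.5%. Slc25a28 and Slc25a37 are closer, with coding GC contents of 60.3% and 57.8%.

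The 4 libraries held 15763432 to 18573386 counts. Counts of replicates differed by more than sampling noise in both groups, with a chi-square per degree of freedom of 12.3 in control and 7.77 in surgery mice. Transcripts of the protein genes encoded in mitochondrial DNA took 2.82% and 2.52% of counts in control mice and 4.44% and 4.48% in surgery mice. Levels are given as counts scaled to library size per 1000000 (CPM). The summed level of 5 choroid plexus markers was 126 and 5387 CPM in control mice and 2021 and 3434 CPM in surgery mice, so control mouse 1 stood apart. That of 5 oligodendrocyte markers was 4572 to 5330 CPM in control mice and 5067 and 3276 CPM in surgery mice, with surgery mouse 2 the lowest. The 5 neuronal markers summed to 4613 to 4727 CPM in control and 4815 to 4991 CPM in surgery mice, with 1 higher and 1 lower. Of the 5 astrocyte markers 3 were higher and 1 lower. They summed to 2836 to 3073 CPM in control and 3359 to 3520 CPM in surgery mice. Of the 5 endothelial markers 2 were higher, with sums of 175 to 181 CPM in control and 205 to 267 CPM in surgery mice. Of the choroid plexus and oligodendrocyte markers 0 were higher or lower. Markers are called at an adjusted p under 0.05, at which 13.1% of all tested genes were higher and 12.8% lower. Of the 5 microglial markers 1 was higher, with sums of 188 to 199 CPM in control and 187 to 189 CPM in surgery mice. Of 4 tested neutrophil markers 1 was lower, with sums of 9.17 and 14.6 CPM in control and 2.57 and 9.78 CPM in surgery mice. Their part in the results was not tested. In whole tissue, fewer cells of a type and less RNA per cell cannot be told apart.

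Transcript levels of the family spanned a wide range in the control hippocampus. Between genes, levels were compared as CPM per kb of exon, and 6 carriers led the order. They were Slc25a4, the ADP/ATP carrier of brain and muscle, at 238 ± 6.61 CPM per kb (SD, n = 2), Slc25a5, a second ADP/ATP carrier, at 140 ± 15.0, Slc25a23, a calcium-regulated ATP-Mg/phosphate carrier, at 88.5 ± 1.11, Slc25a3, the phosphate carrier, at 85.5 ± 3.74, Slc25a22, a glutamate carrier, at 65.6 ± 1.27, and Slc25a11, the oxoglutarate/malate carrier, at 49.6 ± 1.36. The ranges of Slc25a23 and Slc25a3 overlapped between the control mice, and those of the other neighbours in this order did not. These 6 genes held 66.9% and 67.5% of the family's summed CPM per kb in control mice and 64.5% and 64.8% in surgery mice. The highest and the lowest tested member, Slc25a4 and Slc25a21, differed 2744-fold in level per kb.

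**Figure D1:**
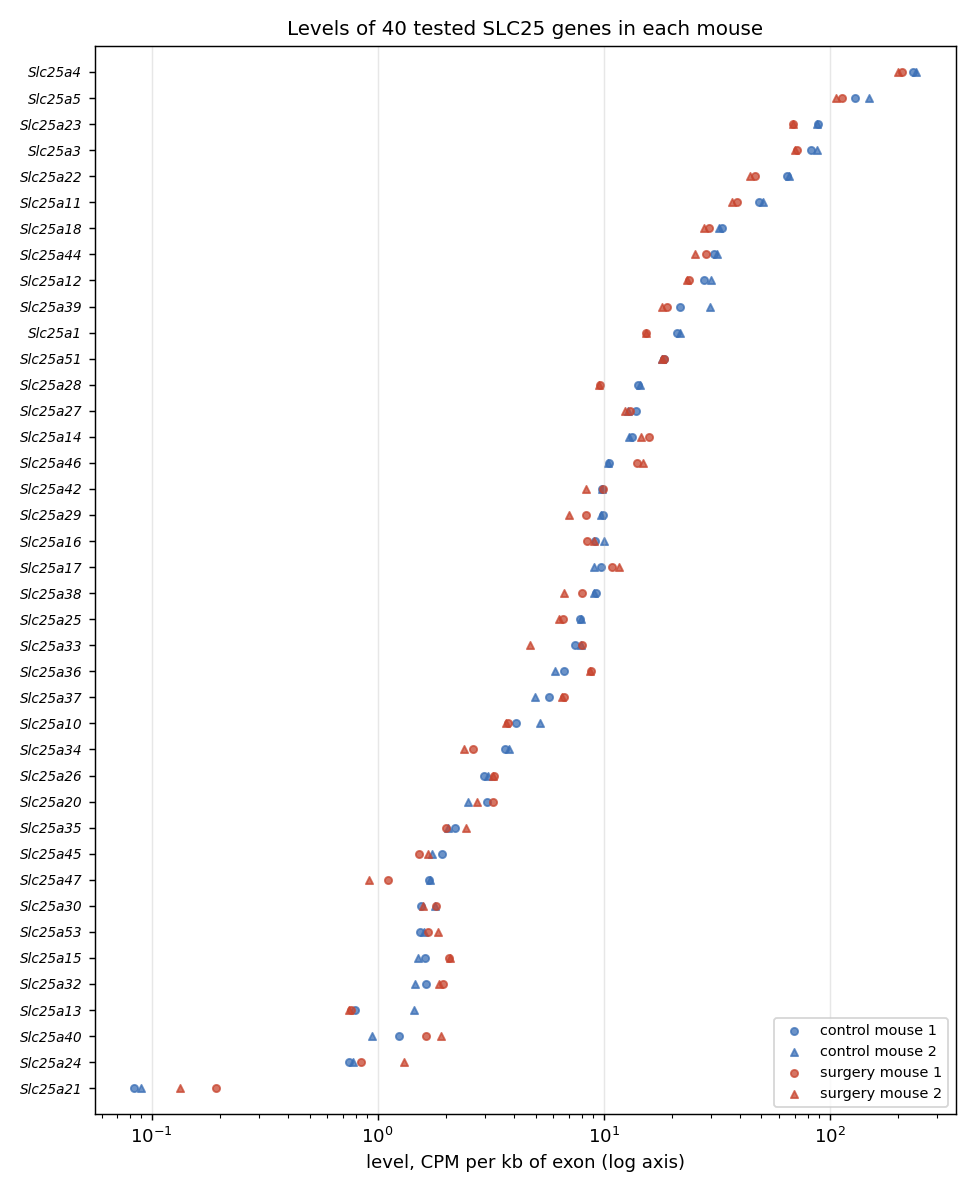
Level of 40 of the 41 tested SLC25 genes in CPM per kb of exon (log axis) in each of the 2 control and 2 surgery mice, ordered by level in control mice; each point is a mouse. Slc25a4 leads at 238 CPM per kb in control and 204 CPM per kb in surgery mice, and the 6 genes with the highest level are lower in both surgery mice.

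Differences are given as log2 fold changes of surgery over control mice with their standard error (SE). In the surgery mice, 11 of the 41 tested members fell and 3 rose. The fall covered the 6 carriers with the highest level and 5 others, and the rise covered Slc25a36, Slc25a46 and Slc25a40. Of all 17144 genes tested by edgeR's quasi-likelihood test, 12.8% were lower and 13.1% higher at an adjusted p under 0.05, against 26.8% and 7.32% of the tested members. With a correction for the GC content and length of transcripts, described with the GC contents, the members' counts became 3 lower and 0 higher (1 higher at an unadjusted p under 0.05). The shares of all genes lower and higher at an adjusted p under 0.05 became 2.82% and 1.88%. Without this correction, the other 27 members did not pass the test. To count as a differentially expressed gene (DEG), a gene also needed a ratio of 1.5 or more, or of 0.67 or less. Slc25a28 was the member that was a lower DEG and Slc25a40 the member that was a higher DEG, where 2.25% and 6.75% of all tested genes were lower and higher DEGs. Leaving out control mouse 2 or surgery mouse 2 brought the lower members down to 5 in each case, and Slc25a28 and Slc25a40 then no longer met the DEG thresholds. Of the 14 members that passed, 7 (Slc25a28, Slc25a22, Slc25a1, Slc25a11, Slc25a23, Slc25a36 and Slc25a46) passed whichever mouse was left out.

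The direction was also read mouse by mouse. In 22 tested members both surgery mice lay below both control mice, and in 12 both lay above, while 32.2% and 33.2% of all tested genes did so. The groups overlapped in 7 members. The median log2 fold change was -0.20 over the 41 members and 0.01 over all tested genes, and the median standard error of a member was 0.10. The median member stood at -0.141 and -0.235 on the log2 scale in the 2 surgery mice relative to the control mean, and at -0.0071 and 0.0071 in the control mice. Summed over the family, the level was 3492 and 3611 CPM in control mice and 3063 and 2961 CPM in surgery mice, with no overlap between the groups.

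**Figure D2:**
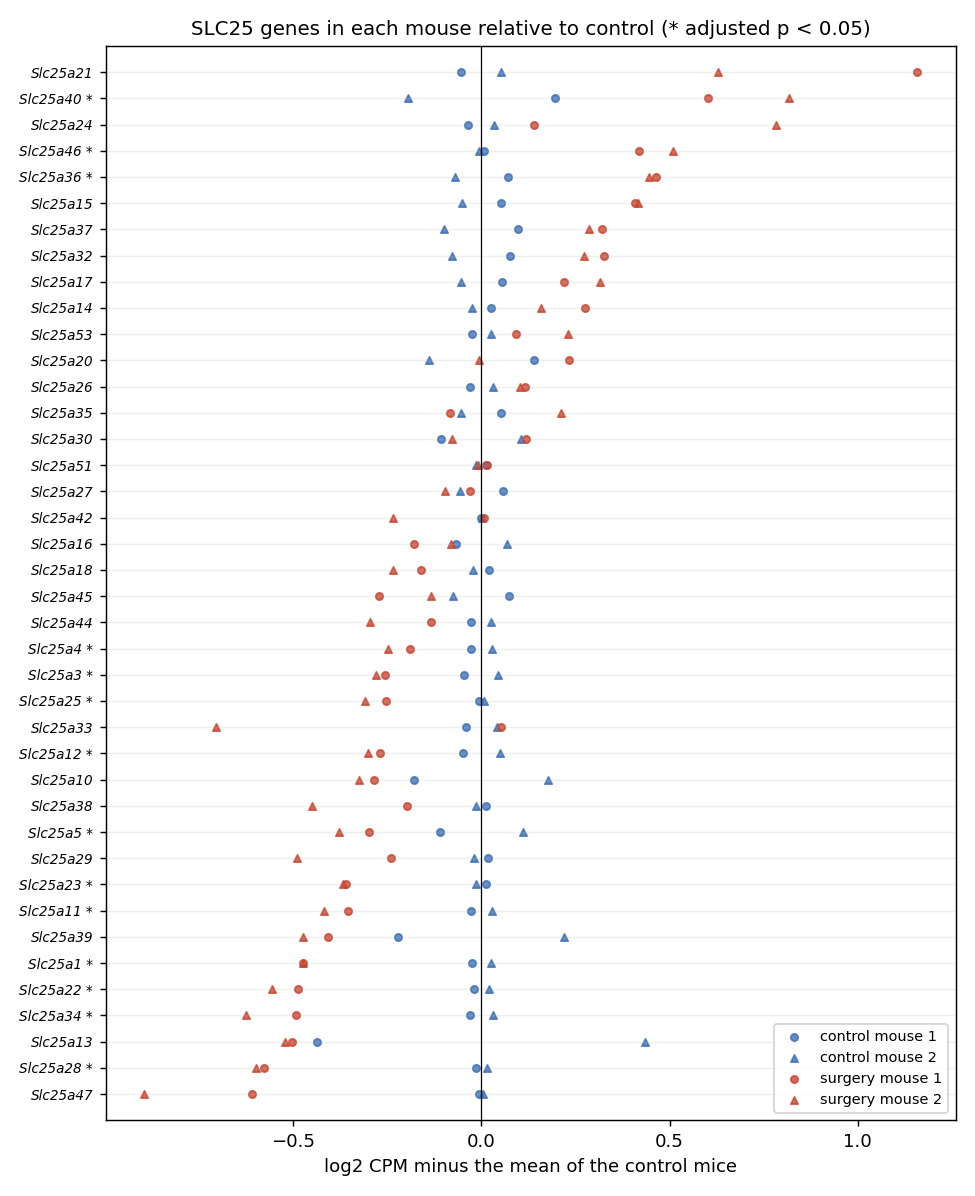
Log2 CPM of 40 of the 41 tested SLC25 genes in each of the 2 control and 2 surgery mice, minus the mean of the controls; each point is a mouse, genes are ordered by log2 fold change, and asterisks mark the 14 that passed the test. Both surgery mice lie left of both control mice in 21 of the genes plotted and right of them in 12.

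Carriers of adenine nucleotides and phosphate fell in 5 of 6 tested members, where 12.8% of all tested genes fell. The median of the 6 was -0.27. Without control mouse 2 or surgery mouse 2 only Slc25a23 of the group passed, and the correction for GC content and length left 2 (Slc25a3 and Slc25a5). Slc25a4 (chr8:46206797-46211284) had 548 and 570 CPM in control mice and 491 and 470 CPM in surgery mice, a log2 fold change of -0.22 ± 0.058 (SE; edgeR adjusted p = 0.037). Slc25a5 (chrX:36795651-36798807) had 212 and 247 CPM in control mice and 186 and 176 CPM in surgery mice. This gave a log2 fold change of -0.34 ± 0.086 (SE; edgeR adjusted p = 0.030), and the groups did not overlap for either ADP/ATP carrier. Slc25a5 shares 19.8% of its 75 nt transcript windows with 6 other annotated genes, among them its own pseudogene, so its count is uncertain. The adjusted p of Slc25a4 was 0.062 without control mouse 1 and 0.15 without control mouse 2 or surgery mouse 2, and that of Slc25a5 was 0.11 without control mouse 2 and 0.090 without surgery mouse 2.

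Slc25a3 (chr10:91116574-91124059), which brings phosphate into the matrix for ATP synthesis, had 460 and 489 CPM in control mice and 397 and 391 CPM in surgery mice. The fall amounted to a log2 fold change of -0.27 ± 0.059 (SE; edgeR adjusted p = 0.021). Both surgery mice were below both control mice by more than the gap between the control mice. Without control mouse 2 or surgery mouse 2 the adjusted p of Slc25a3 was 0.095 and 0.070.

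Slc25a23 (chr17:57043711-57059863) and Slc25a25 exchange ATP-Mg for phosphate under the control of cytosolic calcium. Slc25a23 fell from 473 and 464 CPM to 365 and 363 CPM, a log2 fold change of -0.36 ± 0.054 (SE; edgeR adjusted p = 0.0066). Slc25a25 had 61.7 and 62.3 CPM in control mice and 52.0 and 50.0 CPM in surgery mice, a log2 fold change of -0.28 ± 0.072 (SE; edgeR adjusted p = 0.033). The replicates of both genes lay close together and far from the other group, yet the adjusted p of Slc25a25 was between 0.054 and 0.14 when any 1 mouse was left out. Slc25a24, another member with this function, was at 2.55 and 2.68 CPM in control mice and at 2.88 and 4.50 CPM in surgery mice and did not pass the test (log2 fold change 0.50 ± 0.30, SE). Its log2 fold change was 0.77 without surgery mouse 1 and 0.14 without surgery mouse 2. Exons of 12 members overlap a gene on the other strand, among them Slc25a23, Slc25a25, Slc25a11, Slc25a46, Slc25a18, Slc25a10, Slc25a33 and Slc25a37, and the use of strand in the counting is not given in the sources used here.

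Among the carriers of aspartate, glutamate and other amino acids, 2 of 8 tested members fell, where 12.8% of all tested genes did, and the median log2 fold change was -0.30. With the correction for GC content and length the median was -0.12, and the adjusted p of both members was 0.057. The count was 1 without control mouse 2 or surgery mouse 2 and 5 without surgery mouse 1. Slc25a22 (chr7:141429744-141437892), which imports glutamate together with a proton, had 388 and 398 CPM in control mice and 280 and 267 CPM in surgery mice. This was a log2 fold change of -0.52 ± 0.058 (SE; edgeR adjusted p = 0.0045), and the level fell by 30.3%. The surgery mice were separated from the control mice by far more than the mice of either group differed. Slc25a18, the related glutamate carrier known from astrocytes, had 63.7 and 61.8 CPM in control mice and 56.2 and 53.3 CPM in surgery mice (log2 fold change -0.20 ± 0.073, SE, adjusted p = 0.096).

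Slc25a12 (chr2:71271063-71367749), the aspartate/glutamate carrier of the neuronal malate-aspartate shuttle, had 205 and 219 CPM in control mice and 176 and 172 CPM in surgery mice. This corresponds to a log2 fold change of -0.29 ± 0.063 (SE; edgeR adjusted p = 0.020), and the groups did not overlap. Without control mouse 2 or surgery mouse 2 its adjusted p was 0.094 and 0.074. Its relative Slc25a13, the form known from liver, was at 3.02 and 5.53 CPM in control mice and at 2.88 and 2.84 CPM in surgery mice. The difference of -0.58 ± 0.34 (SE, log2) did not pass the test and was -0.08 without control mouse 2. The carriers of basic amino acids (Slc25a29), glycine (Slc25a38), branched-chain amino acids (Slc25a44) and ornithine (Slc25a15) had log2 fold changes of -0.36, -0.32, -0.21 and 0.41 and adjusted p-values of 0.070, 0.097, 0.088 and 0.081. Without surgery mouse 1 those of Slc25a29, Slc25a38 and Slc25a44 were -0.50, -0.47 and -0.31 (adjusted p = 0.036, 0.047 and 0.042), and without surgery mouse 2 they were -0.23, -0.19 and -0.13.

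Carriers of di- and tricarboxylates held 2 lower members among 4, where 12.8% of all tested genes were lower. Neither passed with the correction for GC content and length, under which Slc25a11 stood at -0.23 (adjusted p = 0.10) and Slc25a1 at -0.19 (adjusted p = 0.20). Slc25a11 (chr11:70644196-70647479), the partner of Slc25a12 in the malate-aspartate shuttle, had 103 and 107 CPM in control mice and 82.3 and 78.7 CPM in surgery mice. It fell by 0.39 on the log2 scale (SE 0.067; edgeR adjusted p = 0.0097). The overlapping gene of Slc25a11 is Rnf167. Slc25a1 (chr16:17925211-17928219), which exports citrate for the synthesis of fatty acids and sterols, had 45.6 and 47.3 CPM in control mice and 33.4 CPM in each surgery mouse. It fell by 0.47 on the log2 scale (SE 0.080; edgeR adjusted p = 0.0088). The dicarboxylate carrier Slc25a10 had 14.1 and 18.1 CPM in control mice and 13.1 and 12.7 CPM in surgery mice (log2 fold change -0.32, adjusted p = 0.19; -0.49 without control mouse 1 and -0.13 without control mouse 2), and the oxoadipate carrier Slc25a21 stayed below 1 CPM in every mouse.

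Of the 13 carriers of cofactors, metals, pyrimidine nucleotides and glutathione, 1 was lower, 2 were higher and 10 did not pass the test, and their median was 0.00. Over all tested genes 12.8% were lower and 13.1% higher. With the correction for GC content and length the lower member, Slc25a28, still passed and the higher ones did not. Slc25a28 (mitoferrin-2; chr19:43663822-43674881), an iron importer of many tissues, had 53.4 and 54.4 CPM in control mice and 36.1 and 35.6 CPM in surgery mice. The log2 fold change, -0.59 ± 0.076 (SE; edgeR adjusted p = 0.0053), was the lowest among the members that passed the test, and the level fell by 33.5%. The fold change lies close to the DEG threshold of 0.67. The iron importer of developing red cells, Slc25a37 (mitoferrin-1), was at 34.4 and 30.04 CPM in control mice and at 40.2 and 39.2 CPM in surgery mice, a log2 fold change of 0.30 ± 0.098 (SE, adjusted p = 0.066). It shares 6.55% of its windows with other genes.

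Slc25a36 (chr9:97074961-97111157), a carrier of pyrimidine nucleotides, had 64.3 and 58.3 CPM in control mice and 84.5 and 83.4 CPM in surgery mice. The rise came to a log2 fold change of 0.45 ± 0.077 (SE; edgeR adjusted p = 0.0090), and the sign turned, to -0.16, with the correction for GC content and length. The other pyrimidine nucleotide carrier, Slc25a33, had 14.2, 15.0, 15.1 and 8.95 CPM in the control and then the surgery mice, so its groups overlapped, and the lowest value was that of surgery mouse 2. Its log2 fold change of -0.28 was -0.72 (adjusted p = 0.028) without surgery mouse 1 and 0.06 without surgery mouse 2. Slc25a40 (chr5:8422850-8454797), a relative of the glutathione carrier, had 10.4 and 7.93 CPM in control mice and 13.8 and 16 CPM in surgery mice. The rise was a log2 fold change of 0.70 ± 0.18 (SE; edgeR adjusted p = 0.032), and it was 0.52 (adjusted p = 0.13) without control mouse 2 and 0.60 (adjusted p = 0.094) without surgery mouse 2. With the correction for GC content and length it was 0.11 (adjusted p = 0.71). Slc25a36 and Slc25a40 share 5.52% and 2.60% of their windows with other genes.

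Slc25a39, the mitochondrial glutathione carrier, had 59.8 and 81.2 CPM in control mice and 52.5 and 50.1 CPM in surgery mice. The control mice differed by more than the lower of them differed from the surgery mice, and the log2 fold change of -0.46 did not pass the test (SE 0.14, adjusted p = 0.059). It was -0.67 (adjusted p = 0.0063) without control mouse 1 and -0.22 (adjusted p = 0.20) without control mouse 2. The NAD carrier Slc25a51 stood at 101.5 and 99.7 CPM in control mice and at 101.7 and 99.96 CPM in surgery mice, a log2 fold change of 0.0029 ± 0.062 (SE). The folate carrier Slc25a32 had a log2 fold change of 0.30 ± 0.15 (SE, adjusted p = 0.18), and the peroxisomal carrier Slc25a17 of 0.27 ± 0.096 (SE, adjusted p = 0.087).

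Of the members with no substrate assigned here, 1 of 4 tested rose and 1 fell, where 13.1% and 12.8% of all tested genes did. Slc25a46, which takes part in mitochondrial fission and lipid transfer, had 57.1 and 56.6 CPM in control mice and 76.1 and 80.9 CPM in surgery mice, a log2 fold change of 0.47 ± 0.071 (SE; edgeR adjusted p = 0.0071). With the correction for GC content and length it was 0.12 (adjusted p = 0.35). Slc25a34 had 9.75 and 10.2 CPM in control mice and 7.09 and 6.46 CPM in surgery mice, a log2 fold change of -0.56 ± 0.16 (SE). Its edgeR adjusted p of 0.047 lay next to the threshold, and it ran from 0.045 to 0.28 over the alternative analyses, with values of 0.071 to 0.17 when any 1 mouse was left out. Slc25a35 and Slc25a53 had log2 fold changes of 0.07 and 0.16.

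The carriers of carnitine esters and quaternary amines and the uncoupling-protein relatives held no member that passed the edgeR test, nor by DESeq2. Of all tested genes 12.8% were lower and 13.1% higher by edgeR, and 12.3% and 10.7% by DESeq2. At an unadjusted p under 0.05, where no share of all genes was computed, stood 1 of 3 tested members in each group. They were Slc25a47, at 5.05 and 5.09 CPM in control mice and 3.32 and 2.73 CPM in surgery mice (log2 fold change -0.75 ± 0.23, SE, adjusted p = 0.055), and Slc25a14, at 31.6 and 30.5 CPM in control mice and 37.6 and 34.7 CPM in surgery mice (log2 fold change 0.22 ± 0.090, SE, adjusted p = 0.13). The carnitine/acylcarnitine carrier Slc25a20, which admits long-chain fatty acids for oxidation, had a log2 fold change of 0.11 ± 0.16 (SE). It was 0.25 and -0.026 without control mouse 1 and 2, and -0.025 and 0.23 without surgery mouse 1 and 2. Slc25a27 and Slc25a30, the other uncoupling-protein relatives, stood at -0.06 and 0.02. The 6 members that were not tested (Slc25a2, Slc25a31, Slc25a41, Slc25a43, Slc25a48 and Slc25a54) had at most 9 counts in any library. Slc25a43 had 1 and 2 counts in control mice and 7 in each surgery mouse.

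Related carriers were then set against each other within each mouse, for pairs chosen after their values had been seen. With 2 against 2 mice an exact permutation test cannot give a two-sided p below 0.333, so the ratios are given as values. The ratio of Slc25a28 to Slc25a37, both in CPM per kb, was 2.49 and 2.91 in control mice and 1.44 and 1.46 in surgery mice. The ratio of Slc25a39 to Slc25a40 was 17.5 and 31.1 in control mice and 11.6 and 9.53 in surgery mice. For the pyrimidine nucleotide carriers, Slc25a33 to Slc25a36, it was 1.12 and 1.31 in control mice and 0.909 and 0.546 in surgery mice, with the lowest ratio in surgery mouse 2, where Slc25a33 was low. The log2 difference of this pair was -0.74 without and -0.0052 with the correction for GC content and length. The glutamate carriers Slc25a22 and Slc25a18 had ratios of 1.94 and 2.06 in control mice and 1.59 and 1.60 in surgery mice. The ratio of Slc25a5 to Slc25a4 was 0.554 and 0.620 in control mice and 0.543 and 0.536 in surgery mice, and that of Slc25a23 to Slc25a25 was 11.4 and 11.1 in control mice and 10.4 and 10.8 in surgery mice. The groups did not overlap in these pairs. Among single genes, both surgery mice lay below both control mice in 32.2% of all tested genes and above them in 33.2%. No such share was computed for ratios. For Slc25a12 to Slc25a13, they overlapped.

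**Figure D3:**
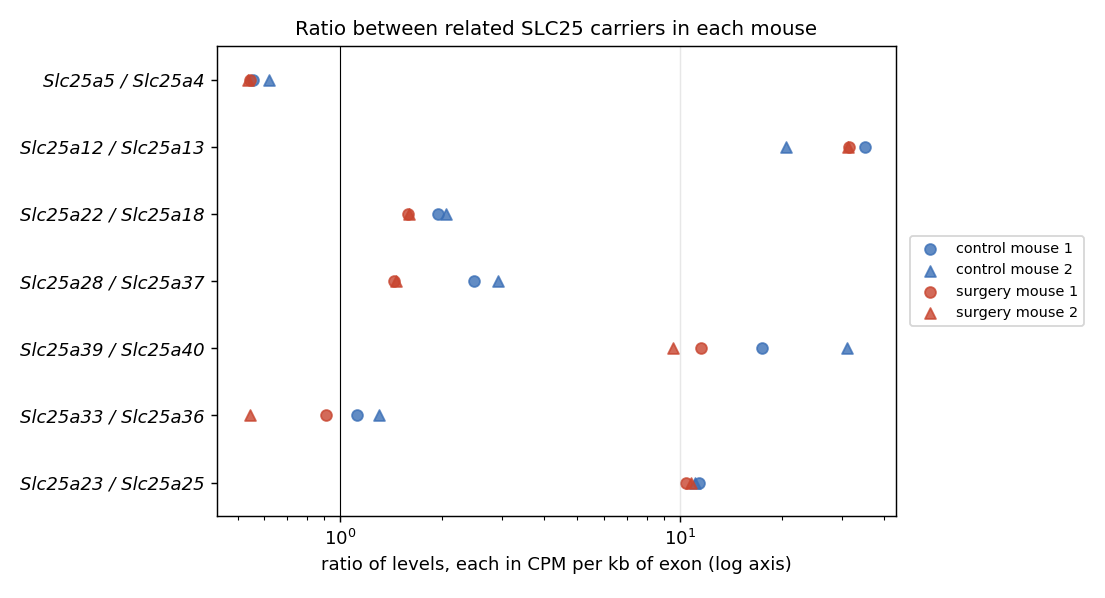
Ratio of the levels of related SLC25 carriers within each mouse, each level in CPM per kb of exon (log axis); blue points are the 2 control mice and red points the 2 surgery mice. The ratios of Slc25a28 to Slc25a37 are 2.49 and 2.91 in control mice and 1.44 and 1.46 in surgery mice, and those of Slc25a12 to Slc25a13 overlap.

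The change of a member moved with the GC content of its transcripts. Across the 41 tested members, Spearman's rho between log2 fold change and GC content was -0.74 and Pearson's r was -0.78, and over all tested genes rho was -0.62. These values are across genes of the same 4 libraries, which are not independent replicates. The 11 lower members had GC contents of 47.3% to 59.7% and the 3 higher members of 38.8% to 43.7%, within a family range of 38.8% to 60.4%. Of all tested genes in the GC bin from 57.53% upward, 37.2% were lower, and 3 of the 7 members there were lower. In the bin up to 43.14%, 47.6% of all genes were higher, as were 2 of the 3 members. Weighted to the GC bins of the members, 15.2% of all tested genes were lower and 9.18% were higher, beside 26.8% and 7.32% of the members. Of the 41 members, 24 had a log2 fold change below the median of their bin.

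A smooth trend of GC content and length was then removed from each library and the test repeated on 17120 genes. Both were medians over the annotated transcripts of a gene, short ones included. For Slc25a22 this gave a length of 743 nt, below its coding sequence of 969 nt. With this correction 3 members stayed lower (10 at an unadjusted p under 0.05), and 0 were higher by edgeR (1 at an unadjusted p under 0.05). At an adjusted p under 0.05, 2.82% and 1.88% of all genes were lower and higher. The share of all genes at an unadjusted p was not computed, so the counts at that threshold have no background here. Members that met the DEG thresholds numbered 0 in each direction, where 0.391% and 0.911% of all genes were lower and higher DEGs. The 3 were Slc25a3 (log2 fold change -0.44, adjusted p = 0.028), Slc25a28 (-0.42, adjusted p = 0.039) and Slc25a5 (-0.44, adjusted p = 0.046). Slc25a22 and Slc25a12 stood at -0.27 and -0.29, each with an adjusted p of 0.057. Slc25a1, Slc25a11, Slc25a23, Slc25a25, Slc25a34 and Slc25a4 had corrected log2 fold changes of -0.19, -0.23, -0.15, -0.15, -0.33 and -0.17, with adjusted p-values from 0.10 to 0.29. The value of Slc25a4 was thus near its uncorrected -0.22, while Slc25a1 and Slc25a23 had stood at -0.47 and -0.36. The values of the 3 higher members were those given with each of them. The corrected difference between Slc25a28 and Slc25a37 was -0.67 on the log2 scale, that of Slc25a5 against Slc25a4 was -0.27 and that of Slc25a22 against Slc25a18 was -0.18, while that of Slc25a39 against Slc25a40 went from -1.16 to -0.29 and that of Slc25a23 against Slc25a25 from -0.08 to 0.0011. The corrected median was -0.10 over the members and -0.02 over all genes.

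**Figure D4:**
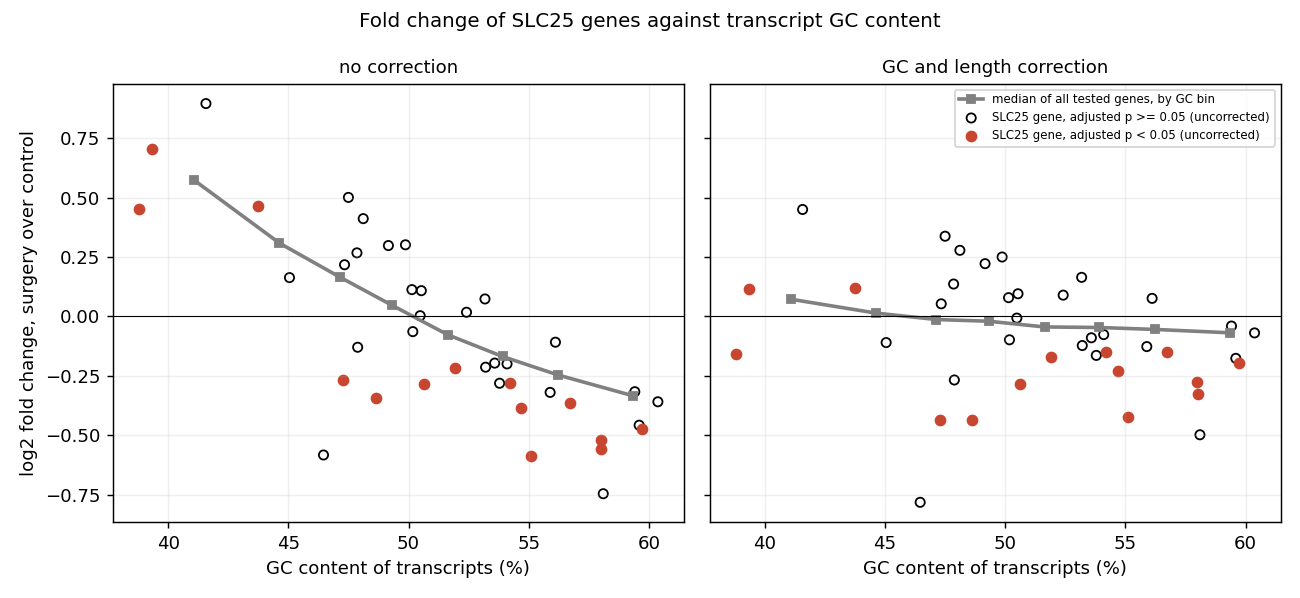
Log2 fold change of surgery over control mice against the median GC content of a gene's transcripts for 40 of the 41 tested SLC25 genes, without (left) and with (right) the correction for GC content and length; red points passed the test without correction, and grey squares are medians of all tested genes in 8 GC bins. Without correction the grey medians run from 0.57 to -0.33, and with it from 0.07 to -0.07.

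RefSeq's promoter windows (GRCm38.p6), from 250 bases before to 50 after the start of a gene, were found for 36 of the 47 members, some of which have more than 1 window, and a member or gene was counted once if any of its windows held a match. The core bound by NRF-1, a factor of mitochondrial gene expression, reads GCGC, any base and then TGCGC. It occurred on either strand in 2 of the 36 (5.56%) and in 5.19% of the 27025 genes with a window. The matches lay in Slc25a3, 214 bases before the start, and Slc25a31. The letters TNAAGGTCA, a site of estrogen-related receptors, occurred in 0 of the 36 members and in 1.43% of the 27025 genes. The motifs do not overlap in their letters, and a match or its lack is a description of these windows.

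Other genes of mitochondrial solute transport were taken from a list of 29 symbols, chosen by function with earlier results of these data known. Ucp4 is an older name of the member Slc25a27, and 27 of the other 28 were tested. Of these, 8 fell, 3 rose and 16 did not pass the test, where 12.8% and 13.1% of all tested genes were lower and higher. The median of the list was -0.05 on the log2 scale. The lower genes included Mtch1, a carrier relative of the outer membrane (432 and 444 CPM in control and 301 and 284 CPM in surgery mice), Smdt1, a subunit of the calcium uniporter (63.8 and 65.2 CPM, then 46.4 and 39.2 CPM), the serine transporter relative Sfxn3, the pyruvate carrier subunit Mpc2 and the porin Vdac1. Their log2 fold changes were -0.58, -0.59, -0.43, -0.33 and -0.21 in that order. The higher genes included Mpc1, the partner of Mpc2 in the pyruvate carrier (8.88 and 8.59 CPM, then 14.3 and 14.1 CPM) and Micu3, a calcium sensor of the uniporter, with log2 fold changes of 0.70 and 1.13. The subunits Mpc1 and Mpc2 thus moved in opposite directions. With the correction for GC content and length the median of the list was -0.098, and 2 of its genes passed the test. These were Mtch1 and Mpc2, which stayed lower at -0.39 and -0.69 (edgeR adjusted p = 0.032 and 0.020). Mpc1 and Micu3 had corrected log2 fold changes of 0.50 and 0.29 (adjusted p = 0.085 and 0.072). Those of Smdt1, Sfxn3 and Vdac1 were -0.36, -0.28 and -0.22 (adjusted p = 0.085, 0.056 and 0.080).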

How the data were processed

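Hippocampal RNA of 2 control and 2 surgery mice was sequenced. The authors mapped the reads to mm10 with HISAT and deposited raw read counts per gene and mouse. The submitters' processing notes also list HISAT2 2.1.0, HTSeq 0.6.0, Bowtie2 2.2.3 and TopHat2 without stating roles, and the strand setting of the counting is not given in the sources used here. The deposited table also holds the authors' comparison (mean scaled signal, fold change as a ratio, log2 fold change and p-values), which was not used.

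The analysis used edgeR 4.0.16 in R 4.3.3. After filterByExpr (minimum count 10) and TMM scaling, condition was tested by quasi-likelihood F test without covariates, and p-values were adjusted by Benjamini-Hochberg over 17144 genes. CPM values use TMM-scaled library sizes. Lengths, GC contents, coding sequences and shared windows came from GENCODE M21 for the same assembly, in which 29238 of the 29300 identifiers occur, and gene coordinates from the deposited table. The GC and length correction used a smooth trend per library (mgcv 1.9.3, basis size 8) as an offset. Alternatives were RLE size factors, library totals, no filter, DESeq2 1.42.0, a replicate block, the correction and leaving out each mouse. The fits were tested on simulated data, and the outcome is not given here.

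Members, lists and substrate groups were chosen with earlier results of these data known. By rule, per-mouse values are given for members at an adjusted p under 0.05 and for the 6 with the highest level; any other member may be named, and those given with per-mouse values were chosen after their values were seen. Mice of a group are labelled as separate samples. The p-values rest on the spread between 2 mice per group, drawn for each gene toward a trend over all tested genes. The total of 15763432 to 18573386 counts per library sets the precision for low genes such as the 6 untested members. Some genes are not reported here by name or in the figures, and counts, medians and correlations include them.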

Additional observations from a re-analysis of the deposited data

How the results depend on the processing

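Of the 14 members that passed the test, RLE size factors and the replicate block kept 14, DESeq2 12, library totals 11 and no low-count filter 10, all in the same direction. The correction for GC content and length kept 3 and brought the lower members from 11 to 3 and the higher members from 3 to 0. Of all genes, 12.8% and 13.1% were lower and higher without it, and 2.82% and 1.88% with it. With the replicate block added to the correction, 8 members were lower and 0 higher (11.3% and 7.03% of all genes), and 7 of the 8 were among the 14 (Slc25a3, Slc25a5, Slc25a28, Slc25a22, Slc25a12, Slc25a11 and Slc25a4). Slc25a36 reversed to -0.16 under the correction with and without the block. The lower DEG count went from 1 to 0 with library totals, the correction, and the correction with the block, and the higher DEG count from 1 to 0 without the filter, with the correction, and with the correction and the block. The median log2 fold change of the members moved from -0.20 to -0.15 with library totals, which set the median of all genes to 0.06, and to -0.10 with the correction, with or without the block. Leaving out 1 mouse gave 5 to 13 lower and 2 to 3 higher members (6.75% to 11.6% and 6.72% to 11.3% of all genes), 0 to 2 lower and 0 to 1 higher DEGs, and a median from -0.25 to -0.13; the lone mouse left in a group is assumed to vary like the other group. The cause of these moves was not tested. Replicate numbers only name mice: deviations of same-numbered mice correlated at 0.224, and with the replicate block 13 members were lower and 4 higher (15.3% and 15.5% of all genes), the added ones being Slc25a39, Slc25a29 and Slc25a37. Members with at most 9 counts in any library were below the filter.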
